A study of Mus musculus with 2 samples.

Results

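The 10 genes described here encode the proteins of inflammatory cell death: the nucleic acid sensor Zbp1, the kinases Ripk1 and Ripk3, the necroptosis executor Mlkl, the caspases Casp8, Casp1 and Casp4, the pore former Gsdmd, and the inflammasome sensors Nlrp3 and Aim2. They were chosen by name, are 10 of the 32285 features in the files, and all 10 were detected in both libraries. The files list them as ENSMUSG00000027514 (Zbp1), ENSMUSG00000021408 (Ripk1), ENSMUSG00000022221 (Ripk3), ENSMUSG00000012519 (Mlkl), ENSMUSG00000026029 (Casp8), ENSMUSG00000025888 (Casp1), ENSMUSG00000033538 (Casp4), ENSMUSG00000022575 (Gsdmd), ENSMUSG00000032691 (Nlrp3) and ENSMUSG00000037860 (Aim2). In the GRCm38 annotation, Casp1 (chr9:5298517-5307265) lies next to Casp4 (chr9:5308828-5336783) on the same strand.

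The study profiled single cells of MC38 tumors, a mouse colon adenocarcinoma line grown in C57BL/6 mice, with droplet 3' RNA sequencing. One library came from tumors injected with MSA-2, a small-molecule agonist of the DNA-sensing adaptor STING, and the other from control tumors, to show what the agonist does to the cells of the tumor. The mice were male or female and aged 6 to 8 weeks, and each library pooled the tumors of 3 mice, and the labels give neither the sex nor the animal of a cell. Control tumors are labelled untreated, while the series record gives 3 intratumoral injections of vehicle, saline with 10% DMSO. MSA-2 tumors received 3 injections of the agonist by the same route, 3 days apart, and the methods put collection on day 7. The methods state a sort of the cells but not its gate, and call all retained barcodes immune cells, whereas the largest class here was tumor-like by its markers. The untreated library held 14386 barcodes and 198135335 unique molecular identifiers (UMIs, counted RNA molecules), and the MSA-2 library 14617 barcodes and 204387165 UMIs. After removal of barcodes with fewer than 500 genes or over 20% mitochondrial UMIs, 14039 and 13963 cells were kept, with medians of 8775 and 9706 UMIs. The libraries shared 53 barcode sequences, which were kept as separate cells.

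In necroptosis the kinase RIPK3, engaged by RIPK1 or directly by ZBP1, activates MLKL, which ruptures the plasma membrane, and caspase 8 holds it in check by cleaving the kinases. In pyroptosis the sensors NLRP3 and AIM2 assemble inflammasomes that activate caspase 1, while the protein encoded by mouse Casp4 (caspase 11) is activated by bacterial lipopolysaccharide in the cytosol, and both enzymes cleave gasdermin D into a membrane pore. STING signalling induces type I interferon, and several of these genes are known interferon targets, but these proteins act after cleavage or phosphorylation, which RNA counts do not measure.

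Cells were assigned to 9 classes by the share of their UMIs in marker lists, and the names mean marker-gated cells. Of untreated and MSA-2 cells, 6826 and 7434 were tumor-like, 246 and 662 fibroblast-like, and 61 and 74 endothelial-like. The myeloid classes held 3594 and 1049 macrophage-like cells, 167 and 496 cells like Ly6c2-type monocytes (monocyte-like below), and 29 and 2556 neutrophil-like cells. The remaining classes were T-like (1292 and 168 cells), NK-like (167 and 94) and dendritic (DC)-like (196 and 16). Because the untreated neutrophil-like and the MSA-2 DC-like class had fewer than 50 cells, their levels are given but no ratio was formed. No doublet caller was run, and the 735 and 461 cells that passed gates of more than 1 lineage were left out as mixed.

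The tumor-like label rests on few of its markers. Keratin transcripts were near 0 in these cells, with Krt8 at 0.147 CPM (counts scaled to 1e+06 UMIs of the class) without and 0.251 CPM with MSA-2, and Epcam at 0.234 and 0.0239 CPM. The class was carried by Gng11 (1335 and 2108 CPM), Anxa1 (1013 and 1167 CPM) and Ccn1 (680.3 and 320.8 CPM). Of these, Gng11 was higher in untreated endothelial-like cells (1408 CPM), and Ccn1 in fibroblast-like cells of both libraries (923.6 and 377.9 CPM). The leading genes of the class by fold over the other classes, Tafa1, Shisal2b and Hmga2, were not on the marker list. In the NK-like class, led by Gzmc, Gzma and Gzmd, the monocyte list had a median of 16.1 UMIs per 10000 in the MSA-2 library beside 13.5 for the NK list. Among the classes other than DC-like, for which this was not counted, cells within 1.5-fold of their gate were most frequent in fibroblast-like cells. Their share was 20.3% without and 26.4% with MSA-2.

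MSA-2 tumors had higher levels of the necroptosis executor Mlkl in 6 of the 7 classes compared, by at least 2-fold, and the sensor Zbp1 had higher CPM levels in all 7 without reaching that size. Casp4 rose past 2-fold in tumor-like, monocyte-like and NK-like cells, while Casp1, its neighbour on chromosome 9, fell in tumor-like cells. Nlrp3 was highest in neutrophil-like, monocyte-like and macrophage-like cells in both libraries. Levels are CPM with an exact Poisson 95% interval, and ratios are MSA-2 over untreated on the log2 scale with an exact conditional 95% interval. With 1 library per condition these intervals cover counting error only, no difference could be checked against replicates, and at least 2-fold is used as a rule of size.

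**Figure D1:**
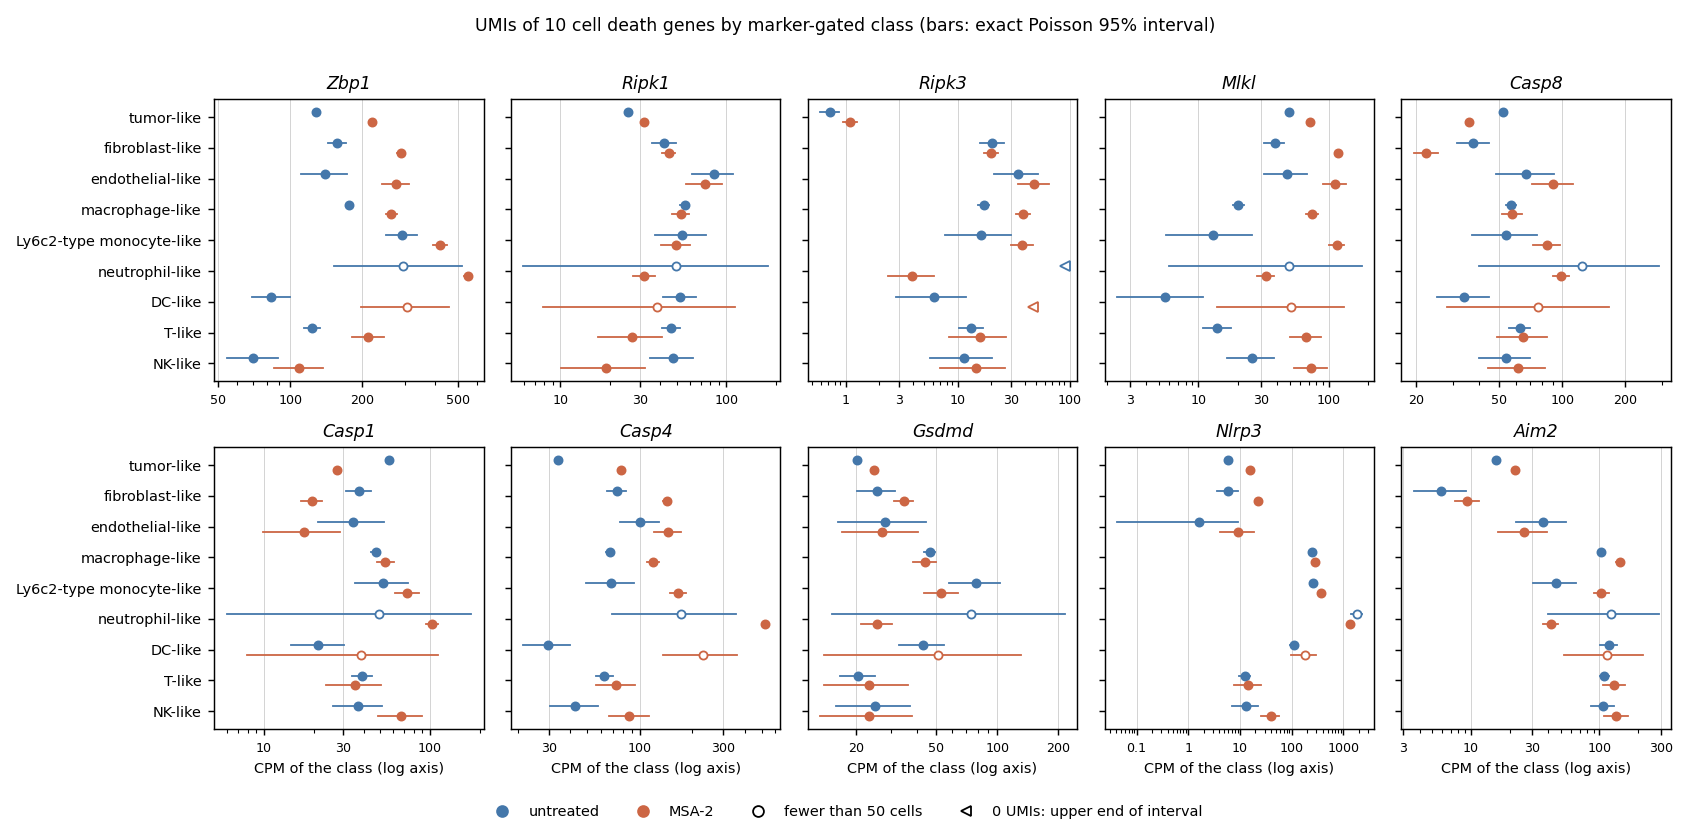
Level of each of the 10 genes in CPM (log axis) by marker-gated class, with exact Poisson 95% intervals, for the untreated and the MSA-2 library. Open points mark classes with fewer than 50 cells, and triangles mark the upper end of the interval where 0 UMIs were counted. Nlrp3 is highest in neutrophil-like cells, at 1826 and 1364 CPM, and Ripk3 in tumor-like cells is at 0.723 and 1.09 CPM.

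Mlkl, whose product forms the necroptotic lesion, had the largest single ratio of the 10 genes. In monocyte-like cells its untreated level was 13.02 CPM (8 UMIs) and its MSA-2 level 115 CPM (235 UMIs), a log2 ratio of 3.15 (2.14 to 4.37). T-like cells went from 14 to 67.1 CPM (2.26, 1.72 to 2.79), and macrophage-like cells from 20.3 to 74.2 CPM (1.87, 1.67 to 2.08). These were the classes with the lowest untreated levels among those compared. In fibroblast-like cells Mlkl stood at 38.3 and 118 CPM (1.62, 1.36 to 1.90), in NK-like cells at 25.8 and 72.8 CPM (1.497, 0.78 to 2.25), and in endothelial-like cells at 47.6 and 111 CPM (1.23, 0.61 to 1.88). Tumor-like cells, which held 85.3% of all Mlkl UMIs of the untreated library, were at 49.3 and 72.2 CPM (0.55, 0.51 to 0.59). Within T-like cells, those with Cd8a or Cd8b1 and no Cd4 (742 and 88 cells) were at 11.8 and 66.3 CPM. The order of the classes differed between libraries. Among the classes compared, tumor-like, endothelial-like and fibroblast-like cells led in the untreated library and their neighbouring intervals overlapped, with monocyte-like cells last. In the MSA-2 library fibroblast-like, monocyte-like and endothelial-like cells led with overlapping intervals, and macrophage-like cells came next, apart from them. The log2 ratio of Mlkl in endothelial-like cells was 0.58 with cells thinned to 1500 UMIs and 2.02 without cells of high UMI count. The log2 ratio of Mlkl in Ly6c2-type monocyte-like cells was 2.44 with 10 CPM added to both values.

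The share of cells with an Mlkl UMI moved the same way. After thinning each cell to 1500 UMIs, the share was 2.25% (77 of 3428) of untreated and 10.1% (99 of 982) of MSA-2 macrophage-like cells, with Clopper-Pearson 95% intervals of 1.78% to 2.80% and 8.27% to 12.1%. In fibroblast-like cells it was 5.74% and 15.3%, and in T-like cells 1.54% and 7.01%. Thinning left out 166 and 67 shallower macrophage-like cells, whose class had median depths of 5505 and 4640 UMIs, and without thinning the shares in macrophage-like cells were 10.5% and 27.2%. Neutrophil-like cells had the lowest thinned share of the MSA-2 classes with at least 50 cells, 4.83%.

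Zbp1, the sensor of Z-form nucleic acids that recruits RIPK3, was detected widely. Among the classes compared, its untreated levels ran from 70.1 CPM in NK-like to 291 CPM in monocyte-like cells, and its MSA-2 levels from 109 to 421 CPM in the same classes. Neutrophil-like cells of the MSA-2 library stood above both, at 546 CPM, with an interval apart from that of monocyte-like cells. Tumor-like cells were at 127.9 and 219 CPM (0.78, 0.75 to 0.80), and the other ratios lay between 0.53 in monocyte-like and 0.98 in endothelial-like cells. All 7 intervals lay above 0 and all 7 ratios were within 2-fold. With TMM scaling factors, which shifted the median of all genes by 0.23 in fibroblast-like, 0.16 in endothelial-like and 0.26 in monocyte-like cells, the log2 ratio of Zbp1 in fibroblast-like cells was 1.12 and the log2 ratio of Zbp1 in endothelial-like cells was 1.15. Thinned to 1500 UMIs per cell, these values were 1.42 and 0.19.

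Ripk3, the kinase that phosphorylates MLKL, was scarce in tumor-like cells. The class had 108 Ripk3 UMIs (0.723 CPM, 0.593 to 0.873) without and 183 (1.09 CPM, 0.940 to 1.26) with MSA-2. Tumor-like cells held 75.5% and 82.2% of all UMIs but 14.4% and 21.1% of Ripk3 UMIs. In the untreated order, endothelial-like (34.5 CPM), fibroblast-like (20.3 CPM), macrophage-like (17.1 CPM), monocyte-like, T-like, NK-like and DC-like cells (6.21 CPM) followed each other with overlapping neighbours, and the tumor-like level lay apart below them. No Ripk3 UMI was counted in 29 untreated neutrophil-like cells, with an exact interval that reached 91.0 CPM, and MSA-2 neutrophil-like cells were at 3.95 CPM. Macrophage-like cells rose from 17.1 to 38.6 CPM (1.18, 0.92 to 1.43) and monocyte-like cells from 16.3 to 37.7 CPM (10 and 77 UMIs; 1.21, 0.26 to 2.33). Fibroblast-like cells were at 20.3 and 19.8 CPM, a log2 ratio of -0.04 (-0.44 to 0.38). With 10 CPM added, the log2 ratio of Ripk3 in macrophage-like cells was 0.84, and the log2 ratio of Ripk3 in Ly6c2-type monocyte-like cells was 0.86 and, thinned to 1500 UMIs, 0.59. Thinned, with 2 and 19 cells holding a UMI, the log2 ratio of Ripk3 in fibroblast-like cells was 1.84.

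At 1500 UMIs per cell, 0.135% (9 of 6688) of untreated and 0.302% (22 of 7292) of MSA-2 tumor-like cells had a Ripk3 UMI, beside 2.25% and 6.52% of macrophage-like cells. Without thinning, at median depths of 19923 and 19561 UMIs, the tumor-like shares were 1.49% and 2.21%. RNA of macrophage markers was counted in these barcodes, and its source was not tested. The macrophage marker list, with 8 of 8 genes detected, summed to 801 CPM without and 237 CPM with MSA-2, led by Apoe at 450.2 and 124 CPM. Scaled to such markers, the macrophage and neutrophil profiles would give 0.361 of the 0.723 CPM and 0.341 of the 1.09 CPM of Ripk3, and their part in the result was not tested.

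Ripk1 and Casp8, the kinase and the protease that set the balance between survival, apoptosis and necroptosis, had ratios on both sides of 0. Ripk1 was highest in endothelial-like cells, at 83.7 CPM in the untreated library, apart from macrophage-like cells at 55.9 CPM, and lowest in tumor-like cells at 25.5 CPM. In NK-like cells it fell from 47.4 CPM (46 UMIs) to 18.9 CPM (13 UMIs), a log2 ratio of -1.33 (-2.34 to -0.41). T-like cells were at 46.4 and 26.9 CPM (-0.79, -1.49 to -0.16) and tumor-like cells at 25.5 and 31.8 CPM (0.32, 0.26 to 0.38). The intervals of the other 4 classes included 0. Adding 10 CPM brought the log2 ratio of Ripk1 in NK-like cells to -0.99, and thinning to 1500 UMIs to -2.07. Casp8 was within 2-fold in every class compared, with 52.1 and 35.6 CPM in tumor-like cells (-0.55, -0.60 to -0.50), 37.4 and 22.3 CPM in fibroblast-like cells (-0.75, -1.07 to -0.42), and 53.7 and 84.3 CPM in monocyte-like cells (0.65, 0.11 to 1.23). In the MSA-2 order neighbours overlapped from neutrophil-like (98.6 CPM) down to macrophage-like cells (57.5 CPM), and tumor-like and then fibroblast-like cells each lay apart from the class above.

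The 300-base promoter windows of Mlkl, the member past 2-fold in most classes, and of Ripk1, the 1 member with an interferon motif, are shown, from RefSeq (GRCm38.p6). Of the 10 members, 8 had windows there, 11 windows in all, and Zbp1 and Gsdmd are named only. Windows were searched on both strands for the ISRE, the GAS and the kB motif, which occurred in 3.44%, 8.30% and 8.46% of 32851 windows of this length. The Mlkl window (chr8:111338156-111338455, minus strand) held no match. The Ripk1 window (chr13:34002624-34002923, plus strand, the second of 2 for this gene) held an ISRE from -5 to 4 and GAS matches from -108 to -100 and from -11 to -3, the last overlapping the ISRE, and capitals mark the matched bases. A match is a description of letters and no site was tested.
Mlkl: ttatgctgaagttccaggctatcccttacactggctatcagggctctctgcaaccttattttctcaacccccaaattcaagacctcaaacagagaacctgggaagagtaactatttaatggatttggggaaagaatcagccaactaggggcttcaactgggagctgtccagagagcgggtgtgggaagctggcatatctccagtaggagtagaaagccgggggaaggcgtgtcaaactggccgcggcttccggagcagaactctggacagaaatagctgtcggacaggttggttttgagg
Ripk1: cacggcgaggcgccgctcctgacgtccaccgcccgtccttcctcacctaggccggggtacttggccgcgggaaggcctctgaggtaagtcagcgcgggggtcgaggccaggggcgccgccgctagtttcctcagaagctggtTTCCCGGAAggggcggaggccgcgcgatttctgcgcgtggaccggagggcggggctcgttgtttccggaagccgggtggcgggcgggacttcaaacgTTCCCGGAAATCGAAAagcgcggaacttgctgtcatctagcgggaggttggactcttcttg

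**Figure D2:**
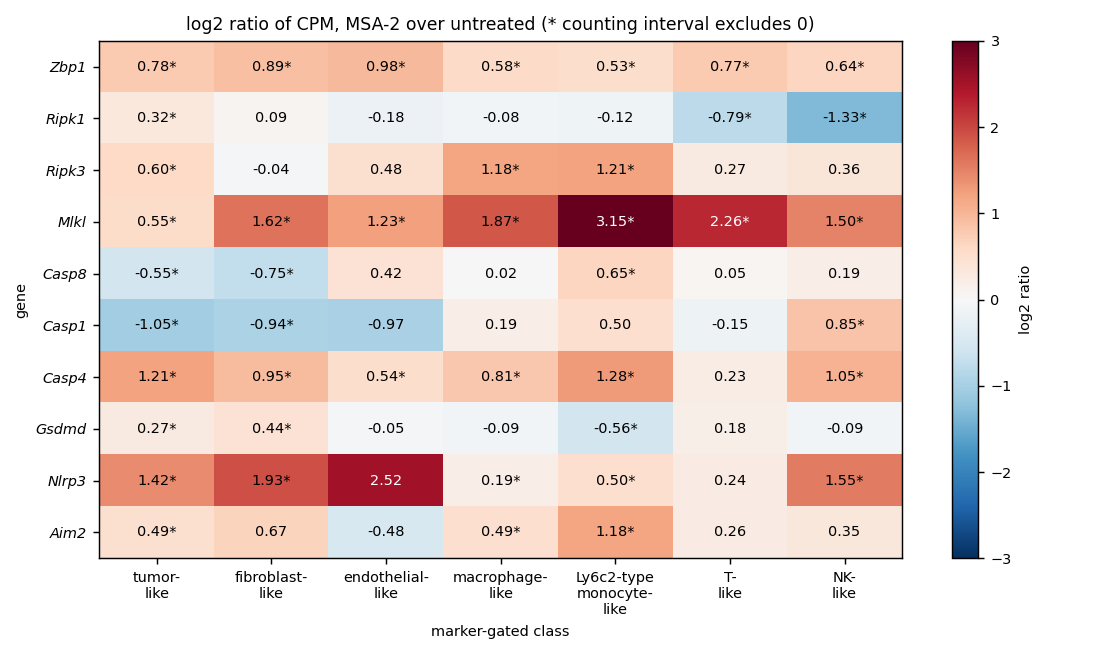
Log2 ratio of CPM, MSA-2 over untreated, for each gene (vertical) in the 7 classes compared (horizontal), with an asterisk where the 95% counting interval excludes 0. Mlkl runs from 0.55 in tumor-like to 3.15 in monocyte-like cells, and Casp1 from -1.05 in tumor-like to 0.85 in NK-like cells.

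Casp4, encoding the cytosolic lipopolysaccharide receptor, was past 2-fold in 3 classes. Tumor-like cells rose from 33.9 to 78.3 CPM (1.21, 1.16 to 1.26), monocyte-like cells from 68.4 to 166 CPM (1.28, 0.82 to 1.78) and NK-like cells from 42.3 to 87.3 CPM (1.05, 0.45 to 1.66). Fibroblast-like cells were at 73.7 and 142 CPM (0.95, 0.76 to 1.15), macrophage-like cells at 67.6 and 119 CPM (0.81, 0.67 to 0.95), and T-like cells at 62.6 and 73.2 CPM (0.23, -0.20 to 0.63). MSA-2 neutrophil-like cells had 525 CPM, apart from all other classes, and held 13.4% of Casp4 UMIs with 2.48% of all UMIs. Thinned to 1500 UMIs, 52.2% (960 of 1841) of these neutrophil-like cells had a Casp4 UMI, beside 5.85% of untreated and 12.7% of MSA-2 tumor-like cells. The log2 ratio of Casp4 in NK-like cells was 0.45 with gate thresholds lowered 2-fold and 0.86 with thresholds raised 2-fold, and the log2 ratio of Casp4 in fibroblast-like cells was 1.18 with TMM factors.

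Casp1, the inflammasome protease, moved the other way in tumor-like cells, from 57.1 to 27.6 CPM (-1.05, -1.10 to -0.99). The share of tumor-like cells with a Casp1 UMI was 8.33% and 3.66% at 1500 UMIs and 57.0% and 33.8% unthinned. Fibroblast-like cells were at 37.4 and 19.5 CPM (-0.94, -1.27 to -0.61) and NK-like cells at 37.1 and 67.0 CPM (0.85, 0.19 to 1.52). In the macrophage-like, monocyte-like, T-like and endothelial-like classes the interval included 0. Untreated levels overlapped between all neighbours from tumor-like (57.1 CPM) to DC-like cells (21.4 CPM), whereas in the MSA-2 library neutrophil-like cells (103 CPM) lay apart from monocyte-like cells (73.5 CPM), the next in order, and tumor-like cells lay apart from fibroblast-like cells (19.5 CPM), the next below. The endothelial-like level (17.6 CPM, 9.849 to 29.02) overlapped both. With 10 CPM added the log2 ratio of Casp1 in tumor-like cells was -0.83. The log2 ratio of Casp1 in fibroblast-like cells was 0.06 with gate thresholds raised 2-fold, -1.53 with thresholds lowered 2-fold and -0.05 thinned to 1500 UMIs.

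Gsdmd, encoding the pore-forming substrate of both caspases, was within 2-fold in all 7 classes. Its level was highest in monocyte-like cells, at 78.1 and 52.9 CPM (-0.56, -1.06 to -0.04). Tumor-like cells were at 20.3 and 24.6 CPM (0.27, 0.21 to 0.34) and fibroblast-like cells at 25.3 and 34.5 CPM (0.44, 0.10 to 0.80). Neighbours in the order of classes overlapped throughout in both libraries.

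Nlrp3, the sensor of ionic and membrane stress, marked the myeloid classes. Untreated neutrophil-like cells had 1826 CPM (74 UMIs), apart from monocyte-like (264 CPM) and macrophage-like cells (245 CPM), which overlapped, and DC-like cells followed apart at 110 CPM. In the MSA-2 library the order of these 4 classes was the same, at 1364, 372, 280 and 179 CPM. Macrophage-like cells had a log2 ratio of 0.19 (0.11 to 0.28) and monocyte-like cells of 0.50 (0.25 to 0.75), both within 2-fold. Within untreated DC-like cells, which can pass more than 1 of 3 gates, those in the cDC2 gate (102 cells) had 174 CPM, those in the cDC1 gate (57 cells) 73.7 CPM and those in the mregDC gate (68 cells) 7.70 CPM. Thinned to 1500 UMIs, 73.0% (1343 of 1841) of MSA-2 neutrophil-like cells had an Nlrp3 UMI, with 715 shallower cells left out, and 78.7% did without thinning at a median of 1803 UMIs. The share in T-like cells, a class of low Nlrp3 level, was 1.21% and 1.27% at the same depth, from median depths of 3191 and 3834 UMIs.

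Most Nlrp3 RNA lay in different classes in the libraries. Macrophage-like cells held 66.3% of untreated Nlrp3 UMIs and 10.7% of those in the MSA-2 library, where neutrophil-like cells held 50.2%. Over whole libraries the level was 38.4 and 67.4 CPM (0.81, 0.77 to 0.85). Aim2 showed a like contrast between levels and totals: its whole-library level was 30.5 and 28.2 CPM (-0.12, -0.17 to -0.06), although tumor-like, macrophage-like and monocyte-like cells each had a ratio above 0. The macrophage-like share of Aim2 UMIs was 34.7% and 13.2%, and the tumor-like share 39.0% and 64.5%.

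**Figure D3:**
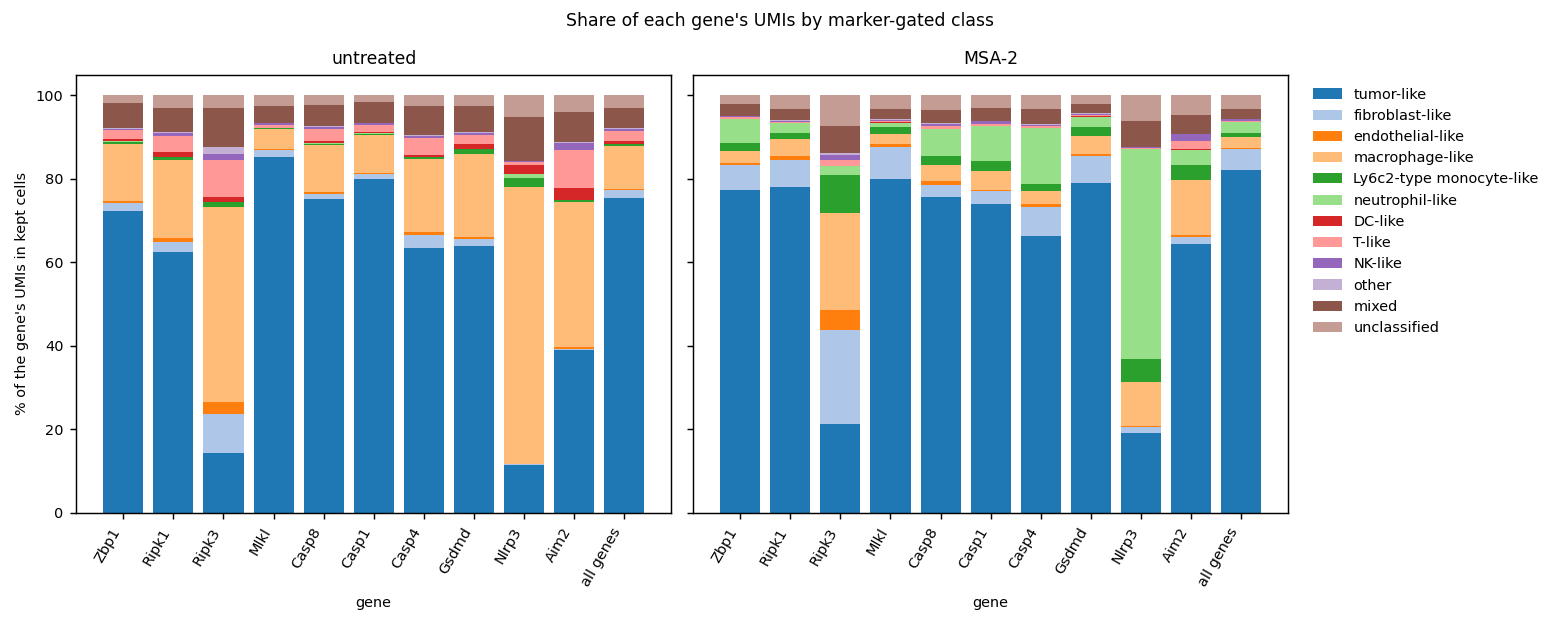
Share of each gene's UMIs (percent, vertical) that lay in each class in the untreated and the MSA-2 library, beside the share of all UMIs. Macrophage-like cells hold 66.3% of untreated Nlrp3 UMIs and neutrophil-like cells 50.2% of those in the MSA-2 library.

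Nlrp3 levels per UMI outside the myeloid classes were low, although tumor-like cells, the largest class, held 18.97% of Nlrp3 UMIs in the MSA-2 library. Tumor-like cells were at 5.83 and 15.6 CPM (1.42, 1.31 to 1.53), fibroblast-like cells at 5.89 and 22.5 CPM (1.93, 1.27 to 2.67), and NK-like cells at 13.4 and 39.3 CPM (13 and 27 UMIs; 1.55, 0.55 to 2.63). Endothelial-like cells had 1 and 8 UMIs (2.52, -0.38 to 7.99). In tumor-like cells the neutrophil marker list, with 10 of 10 genes detected in both libraries, summed to 11.7 CPM in the untreated library, led by Il1r2 at 2.97 CPM, and to 607 CPM in the MSA-2 library, led by S100a9 at 259.9 CPM. The same list summed to 31.8 and 629 CPM in fibroblast-like cells (9 and 10 of 10 genes, Retnlg at 0 in the untreated library) and to 51.6 and 664 CPM in NK-like cells (5 and 9 of 10 genes). S100a8, S100a9, Retnlg, G0s2 and Cxcr2 were at 0 in untreated NK-like cells.

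The level that free RNA would give was computed from the macrophage and neutrophil profiles of the same library, scaled by C1qa, C1qb and C1qc and by S100a8 and S100a9. In untreated tumor-like cells these profiles would give 5.50 of 5.83 CPM of Nlrp3, leaving 0.339 CPM, and in MSA-2 tumor-like cells 10.1 of 15.6 CPM, leaving 5.42 CPM. In fibroblast-like cells they would give 5.59 of 5.89 CPM and 10.1 of 22.5 CPM. In untreated endothelial-like cells the profiles would give 4.69 CPM, more than the 1.64 CPM measured from 1 UMI, and in those of the MSA-2 library 9.002 of 9.39 CPM. NK-like cells had 13.4 CPM beside 5.38 CPM from the profiles in the untreated library and 39.3 beside 10.1 CPM after MSA-2. For Casp4 in tumor-like cells the profiles gave 1.46 of 33.9 CPM and 3.995 of 78.3 CPM. With this amount taken off, an alternative chosen after seeing the data, the log2 ratio of Nlrp3 in tumor-like cells was 4.002 and the log2 ratio of Nlrp3 in fibroblast-like cells was 5.36, both from untreated remainders under 1 CPM. With 10 CPM added they were 0.69 and 1.03. The log2 ratio of Nlrp3 in NK-like cells was -0.62 with gate thresholds lowered 2-fold and 2.40 with thresholds raised 2-fold, and the log2 ratio of Nlrp3 in endothelial-like cells was 0.74 with 10 CPM added.

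**Figure D4:**
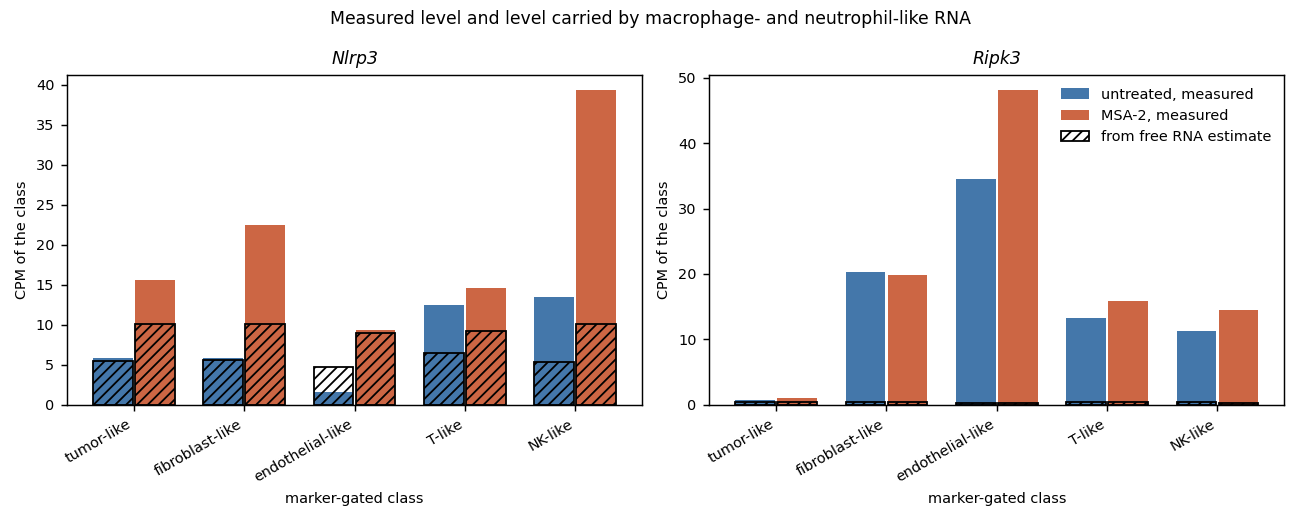
Level of Nlrp3 and Ripk3 in CPM (bars) in 5 classes of the untreated and the MSA-2 library, with the level that the macrophage and neutrophil profiles of the same library would give (hatched). For Nlrp3 in tumor-like cells the profiles give 5.50 of 5.83 CPM without MSA-2 and 10.1 of 15.6 CPM with it.

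Aim2, the sensor of cytosolic DNA, was shared by macrophage-like and lymphoid classes. In the untreated library DC-like (118 CPM), T-like (109 CPM), NK-like (106 CPM) and macrophage-like cells (102 CPM) overlapped, and monocyte-like cells lay apart below at 45.6 CPM. Monocyte-like cells rose to 103 CPM in the MSA-2 library (1.18, 0.61 to 1.81), where their interval overlapped that of DC-like cells (115 CPM), the next above. Macrophage-like cells were at 102 and 144 CPM (0.49, 0.37 to 0.61), and T-like cells at 109 and 131 CPM (0.26, -0.06 to 0.56). Tumor-like cells were at 15.7 and 22.1 CPM (0.49, 0.42 to 0.57), and fibroblast-like cells lay apart at the bottom in both libraries, at 5.89 and 9.38 CPM. The log2 ratio of Aim2 in Ly6c2-type monocyte-like cells was 0.51 with gate thresholds raised 2-fold and 0.58 thinned to 1500 UMIs.

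The 300-base windows of Casp4, which rose past 2-fold in 3 classes, and of Nlrp3, with its myeloid pattern, are shown because these were the members with kB matches. The Casp4 window (chr9:5308599-5308898, plus strand, the first of 2 that overlap) held matches from -93 to -84, from -92 to -83 and from -39 to -30, and the Nlrp3 window (chr11:59541319-59541618, plus strand, the first of 2) held 1 from -186 to -177, in capitals. Sequences are from RefSeq, GRCm38.p6.
Casp4: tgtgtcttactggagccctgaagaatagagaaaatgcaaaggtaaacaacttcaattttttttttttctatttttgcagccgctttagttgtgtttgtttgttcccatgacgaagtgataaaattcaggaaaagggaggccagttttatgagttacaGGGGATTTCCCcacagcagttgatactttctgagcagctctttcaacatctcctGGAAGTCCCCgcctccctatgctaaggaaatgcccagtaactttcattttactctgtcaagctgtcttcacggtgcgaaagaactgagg
Nlrp3: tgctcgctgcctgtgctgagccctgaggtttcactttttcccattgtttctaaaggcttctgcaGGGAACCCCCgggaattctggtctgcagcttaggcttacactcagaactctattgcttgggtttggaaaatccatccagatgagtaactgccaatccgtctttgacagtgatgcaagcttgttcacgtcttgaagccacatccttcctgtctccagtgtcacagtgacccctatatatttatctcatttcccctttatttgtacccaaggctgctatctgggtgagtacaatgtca

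Set against all genes, the members were counted at the same size. In tumor-like cells 2 of 10 members (Casp4 and Nlrp3) were at least 2-fold higher, beside 9.69% of 16260 genes with at least 50 UMIs, and 1 (Casp1) was at least 2-fold lower, beside 5.15%, with medians of 0.52 over the members and 0.06 over all genes. The count higher was 4 with cells thinned to 1500 UMIs, where 11.1% of genes were, and 1 with 10 CPM added, where 1.06% were, and then none was lower. Fibroblast-like cells had 2 higher (Mlkl and Nlrp3), beside 6.17% of 10611 genes, and 0 lower, beside 6.35%, with medians of 0.56 and -0.17. Thinned, 5 were higher beside 10.5% of genes, and with TMM factors 4 beside 8.75%. In these fibroblast-like cells the fibroblast list summed to 40640 CPM without and 27950 CPM with MSA-2, and the monocyte list to 3750 CPM (led by Fn1) and 5476 CPM (led by Plac8 at 3798 CPM). Endothelial-like cells also had 2 higher (Mlkl and Nlrp3), beside 4.96% of 4577 genes, and 0 lower, beside 4.89%. The medians were 0.45 over all 10 members, with no UMI minimum, and -0.14 over these genes. Casp1, Gsdmd, Nlrp3 and Aim2 had fewer than 50 UMIs in that class, so that 1 of the 6 members held to the same minimum as the genes (Mlkl) was higher. The endothelial list summed to 5991 and 4630 CPM in these cells, the macrophage list to 776 and 171 CPM, the neutrophil list to 8.21 and 609 CPM and the pericyte list to 1.64 and 34.0 CPM, the last led by Rgs5. Macrophage-like cells had 2 higher (Ripk3 and Mlkl), beside 6.22% of 11454 genes, and 0 lower, beside 5.96%, with medians of 0.34 and -0.15. With 10 CPM added 1 was higher, beside 2.59%. The macrophage list summed to 39800 and 30080 CPM in these cells, the monocyte list to 810 and 1636 CPM, led by Plac8, and the neutrophil list to 169 and 981 CPM. The part of these shifts in the ratios was not tested.

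In monocyte-like cells 4 of 10 members (Ripk3, Mlkl, Casp4 and Aim2) were at least 2-fold higher, beside 13% of 5672 genes, and 0 lower, beside 9.89%, with medians of 0.59 and -0.19. Thinned, 2 were higher, beside 14.6% of genes. In these cells the macrophage list summed to 3725 CPM without and 1724 CPM with MSA-2, and the fibroblast list to 303 and 751 CPM. The summed neutrophil list went from 697 CPM (6 of 10 genes, with S100a9, Retnlg, G0s2 and Cxcr2 at 0) to 2283 CPM (10 of 10), led by Clec4e in both libraries. Scaled to S100a8 and S100a9, the neutrophil profile would give 6.68 of the 166 CPM of Casp4 and 0.417 of the 115 CPM of Mlkl in MSA-2 monocyte-like cells, and its part in the result was not tested. T-like cells had 1 higher (Mlkl), beside 3.67% of 8551 genes, and 0 lower, beside 7.99%, with medians of 0.23 and -0.16. Their T list summed to 4500 and 3206 CPM, the macrophage list to 1008 and 233 CPM and the neutrophil list to 53.0 and 548 CPM. NK-like cells had 3 higher (Mlkl, Casp4 and Nlrp3), beside 4.18% of 4526 genes, and 1 lower (Ripk1), beside 5.83%. The medians were 0.50 over all 10 members, with no UMI minimum, and -0.09 over these genes. Ripk3, Gsdmd and Nlrp3 were the members below 50 UMIs in NK-like cells, which leaves 2 higher and 1 lower of the 7 others. With gate thresholds lowered 2-fold, 1 member was higher in NK-like cells, beside 3.93% of genes, and Nlrp3 was at -0.62. With 10 CPM added, 0 were lower, beside 3.76%. The NK list summed to 1484 and 1342 CPM there, the monocyte list to 1356 and 2087 CPM and the macrophage list to 878 and 223 CPM. The part of these lists in the ratios was not tested.

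Cells with UMIs of all 3 of Zbp1, Ripk3 and Mlkl were few at matched depth. Thinned to 5000 UMIs, Zbp1, Ripk3 and Mlkl were all detected in 0.448% (1 of 223) of untreated and 3.77% (23 of 610) of MSA-2 fibroblast-like cells, with Clopper-Pearson intervals of 0.0114% to 2.47% and 2.41% to 5.60%. In macrophage-like cells the share was 0.374% (8 of 2140) and 2.34% (11 of 471), with intervals of 0.162% to 0.735% and 1.17% to 4.14%. Tumor-like cells, with their low Ripk3 level, had 0.0640% (4 of 6250) and 0.132% (9 of 6837). In the smaller classes of the MSA-2 library the triple was found in 5 of 59 endothelial-like and 5 of 120 monocyte-like cells, beside 1 of 43 and 0 of 15 in the untreated library. It was found in 1 of 272 untreated and 0 of 69 MSA-2 T-like cells, and in 0 of 93 and 1 of 62 NK-like cells. Of MSA-2 neutrophil-like cells, 1 of 35 held it. The intervals of the fibroblast-like shares overlapped narrowly and those of the macrophage-like shares did not. With 1 library per condition, these intervals over cells also cover counting error only and cannot stand for replicates. Without thinning the shares were 6.10% and 16.2% in fibroblast-like, 0.807% and 3.81% in macrophage-like, 11.5% and 23.0% in endothelial-like, 0.599% and 4.03% in monocyte-like, and 0.806% and 1.64% in tumor-like cells.

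Pairs of pyroptosis genes were counted in the same way. At 5000 UMIs, Nlrp3 and Casp1 were both detected in 10.8% (232 of 2140) of untreated and 14.2% (67 of 471) of MSA-2 macrophage-like cells, beside 0.560% and 0.848% of tumor-like cells. Of 35 MSA-2 neutrophil-like cells this deep, 9 held both. In tumor-like cells the pair of Casp1 and Gsdmd went from 3.01% to 1.46%, and the pair of Casp4 and Gsdmd from 1.89% to 3.89%. In macrophage-like cells these pairs were at 4.21% and 6.16% and at 5.28% and 7.86%. Without thinning the pair of Casp1 and Gsdmd was found in 21.6% and 14.99% of tumor-like cells, beside 6.04% and 6.01% of the shallower macrophage-like cells. At 1500 UMIs, Casp4 and Gsdmd were found together in 0.150% and 0.466% of tumor-like cells.

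**Figure D5:**
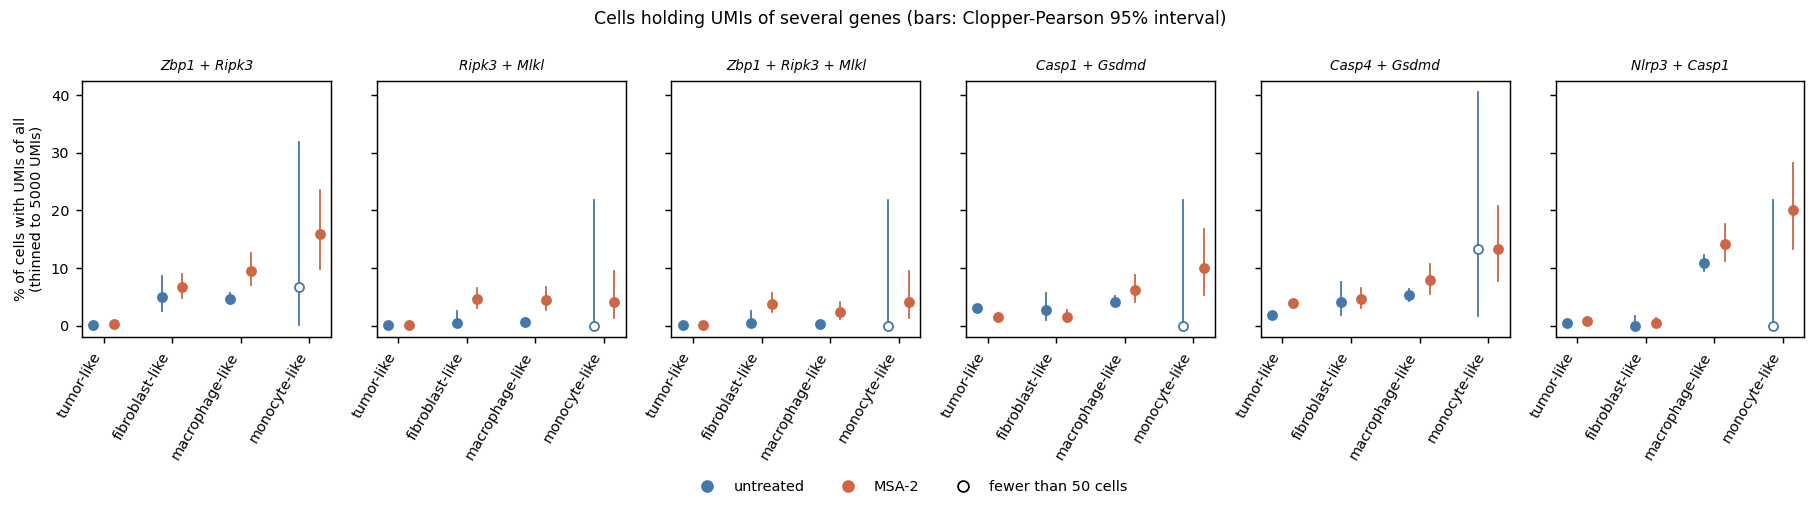
Share of cells (percent, vertical) with UMIs of all the genes named above each panel, after thinning to 5000 UMIs, in 4 classes of the untreated and the MSA-2 library, with Clopper-Pearson 95% intervals and open points where fewer than 50 cells were deep enough. Cells with Zbp1, Ripk3 and Mlkl made up 0.448% and 3.77% of fibroblast-like cells, and cells with Nlrp3 and Casp1 made up 10.8% and 14.2% of macrophage-like cells.

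Other genes of these pathways were counted over lists chosen with earlier results of these data known. Of 20 listed inflammasome and pyroptosis partners, 19 were in the files. In monocyte-like cells 6 of the 14 with at least 50 UMIs were higher and 1 lower, with a median ratio of 0.63, in macrophage-like cells 3 were higher and 2 lower of 19 (0.35), and in fibroblast-like cells 5 were higher and 1 lower of 14 (0.33). Tumor-like cells had 4 higher and 1 lower of 19 (0.00), endothelial-like cells 2 higher and 0 lower of 8 (0.16), T-like cells 2 higher and 1 lower of 12 (-0.17), and NK-like cells 2 higher and 0 lower of 7 (0.25). The shares of all genes past 2-fold given above, 13% higher in monocyte-like and 9.69% in tumor-like cells among them, are the background of these counts and of those in the lists below.

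Gbp5, a guanylate-binding protein linked to inflammasome assembly, was past 2-fold in all 7 classes. Its level was 32.6 and 529 CPM in macrophage-like cells (4.02), 60.2 and 635.5 CPM in monocyte-like cells (3.40) and 13.4 and 89.97 CPM in tumor-like cells (2.75). The inflammasome products split in macrophage-like and monocyte-like cells. Il1b, encoding the cytokine that caspase 1 matures, fell from 2424 to 703 CPM in macrophage-like cells (-1.79) and from 4279 to 1729 CPM in monocyte-like cells (-1.31). Il18, the other cytokine matured by caspase 1, rose from 35.6 to 72.2 CPM in macrophage-like cells (1.019) and from 65.1 to 175 CPM in monocyte-like cells (1.43). Counts in tumor-like cells went the other way, with Il1b at 58.6 and 108 CPM and Il18 at 12.2 and 8.21 CPM. Scaled to markers as above, the macrophage profile stood at 2.11% and 0.824% in these cells, and the neutrophil profile at 0.0173% and 0.574%. The Il1b that these profiles would give was not computed, and their part was not tested. Il1b was also higher with MSA-2 in fibroblast-like (58.9 and 96.4 CPM), endothelial-like (75.5 and 101), T-like (117 and 176) and NK-like cells (120 and 143). The neutrophil profile stood at 0% to 0.008% in these classes without and 0.501% to 0.578% with MSA-2. The macrophage profile stood at 1.91% to 2.56% and 0.483% to 0.862%. Their part in these Il1b levels was not tested either. The highest Il1b level was in neutrophil-like cells, at 15770 and 15160 CPM. Il1a, an alarmin released by dying cells, rose from 52.5 to 135 CPM in macrophage-like cells (1.36) and from 69.98 to 391 CPM in monocyte-like cells (2.48). Pycard, encoding the adaptor ASC, rose in fibroblast-like cells from 36.3 to 89.2 CPM (1.30) and was at 318 and 291 CPM in macrophage-like cells.

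Of 25 genes for partners of the RIPK kinases, death-domain adaptors and ubiquitin enzymes, fibroblast-like cells had 7 higher and 0 lower (median 0.32), tumor-like cells 5 higher and 0 lower (0.31), and macrophage-like cells 4 higher and 1 lower (0.13), all 25 with at least 50 UMIs. Monocyte-like cells had 6 higher and 2 lower of 17 (0.15), endothelial-like cells 5 higher and 0 lower of 14 (0.90), T-like cells 1 higher and 1 lower of 21 (0.00), and NK-like cells 2 higher and 1 lower of 13 (-0.02). Tnf, a ligand that can start necroptosis, was past 2-fold in all 7 classes, with 320 and 1022 CPM in macrophage-like cells (1.68) and 57.0 and 1341 CPM in monocyte-like cells (4.56). Cflar, encoding the caspase 8 partner cFLIP, went from 192 to 392 CPM in macrophage-like cells (1.03) and from 241 to 557 CPM in monocyte-like cells (1.21). Tnfaip3, encoding the ubiquitin-editing enzyme A20, rose from 288 to 845 CPM (1.55) and from 233 to 1154 CPM (2.31) in the same classes. Cyld, encoding a deubiquitinase that acts on RIPK1, fell there from 52.0 to 24.9 CPM (-1.06) and from 63.5 to 22.1 CPM (-1.53). Birc2, encoding the RIPK1 ubiquitin ligase cIAP1, fell in the lymphoid classes, from 157 to 72.0 CPM in T-like cells (-1.12) and from 95.9 to 37.8 CPM in NK-like cells (-1.34).

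For scale, 6 to 8 of 10 interferon-stimulated reference genes were past 2-fold in each of the 7 classes and 0 lower, with medians from 1.38 in tumor-like to 2.86 in endothelial-like cells. Of 8 genes of even use, 1 value passed, Hprt in monocyte-like cells (-1.56).

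Across 16 points (class and library, at least 50 cells each), the patterns most like each member's were sought among 9782 genes by the correlation of log2 levels, as a description over points that share libraries and depth. Zbp1 was most like Xaf1 (r = 0.93), Sgms2 and Tor1aip1, Mlkl most like Ifi44 (0.89), Rbm43 and Slfn9, and Casp4 most like Ifi47 (0.92), Dcun1d3 and Ifit1bl2. Nlrp3 followed the myeloid genes Ptafr, Tlr13 and Ccr1, each at r = 0.98. Ripk3 was most like Saysd1 (0.88), Aig1 and Tmem173, the last encoding STING (0.82). For the others the leading genes were As3mt, Gpr146 and Stim2 (Ripk1, 0.92), Osbpl9, Spata13 and Zfyve26 (Casp8, 0.80), Ubap1, Gm28809 and Cnnm2 (Casp1, 0.82), Apba1, Tifab and Cds1 (Gsdmd, 0.90), and Usp15, Dennd1b and Crlf3 (Aim2, 0.93). Among the members themselves, the highest correlation was that of Zbp1 and Casp4 (0.83) and the lowest that of Ripk1 and Casp1 (-0.41).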

How the data were processed

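The authors deposited a raw UMI count per gene and barcode from 10x 3' libraries, made with Cell Ranger (7.0.0 in the notes, 7.0.1 in the matrix header), with Seurat 4.3.0 named beside it. The methods of the paper name later versions of both tools. Members and lists were chosen with earlier results of these data known. Kept cells were gated into classes by the share and number of marker UMIs, thresholds being set on marker shares after seeing the data. Member levels under a tumor-like gate of 3 markers had been seen before it was lowered to 2. UMIs were summed per class and library and compared as CPM without tests, in python 3.11.15 (numpy 2.4.6, scipy 1.17.1, pandas 2.3.3, matplotlib 3.10.9), and edgeR 4.0.16 (R 4.3.3) gave TMM factors only. Alternatives varied the cell filter, gates, mixed cells, cells of high UMI count, weighting, scaling, added CPM and thinning, and, chosen after seeing the data, free RNA, the tumor-like gate and the shares of all genes under other settings (thinned in a draw of their own). Named genes are all 10 members, pathway-list genes past 2-fold in a class or given as background, class markers and leading genes, and per member the 3 genes of highest Pearson correlation of log2(CPM + 1) over classes and libraries, among genes with at least 20 CPM in 1 class of 1 library.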

Additional observations from a re-analysis of the deposited data

Results flagged for a closer look

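The ratios of 4 members had intervals on opposite sides of 0 in different classes, a criterion settled after the ratios had been seen, and the differences between classes were not tested. Ripk1 had a log2 ratio of MSA-2 over untreated of 0.32 in tumor-like, -0.79 in T-like and -1.33 in NK-like cells. For Casp8 it was 0.65 in monocyte-like, -0.55 in tumor-like and -0.75 in fibroblast-like cells. Casp1 stood at 0.85 in NK-like, -1.05 in tumor-like and -0.94 in fibroblast-like cells, and Gsdmd at 0.27 in tumor-like, 0.44 in fibroblast-like and -0.56 in monocyte-like cells.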

How the results depend on the processing

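Of the 70 ratios (10 members in 7 classes), 13 alternatives gave 907 values, of which 825 lay inside the counting interval of the reported ratio, 82 outside and 38 had the opposite sign. For the 18 ratios past 2-fold, 215 of 231 alternative values were still past 2-fold and 1 had the opposite sign. Thinning to 1500 UMIs put 24 values outside, 10 CPM added 14, TMM factors 12, gates raised 2-fold 8, equal weight 7, gates lowered 2-fold 5, high-UMI cells left out 5, free RNA 4, mixed cells kept 2, 1 CPM added 1, and no filter, a strict filter or a 3-marker tumor gate 0. With 10 CPM added, the median of the members in tumor-like cells was 0.28, members at least 2-fold higher numbered 1 in tumor-like, 1 in endothelial-like and 1 in macrophage-like cells, beside 1.06%, 4.09% and 2.59% of genes, and members lower 0 in tumor-like and 0 in NK-like cells, beside 0.467% and 3.76%. With thinning, the tumor-like median was 0.62, members higher numbered 4 in tumor-like, 5 in fibroblast-like, 1 in endothelial-like and 2 in monocyte-like cells, and members lower 1 in endothelial-like and 1 in T-like cells, beside 11.1%, 10.5%, 12.1% and 14.6% of genes higher in the first 4 and 15.6% and 14.2% lower in the last classes. Equal weight per cell gave a tumor-like median of 0.65, beside 0.07 over all genes, and 1 member lower in endothelial-like cells, beside 6.82%, and TMM factors gave 4 higher in fibroblast-like cells, beside 8.75% of genes. Gates lowered 2-fold gave 1 lower in fibroblast-like, 1 lower in endothelial-like and 1 higher in NK-like cells, where Nlrp3 was at -0.62, beside 3.74%, 4.92% and 3.93% of genes, and gates raised 2-fold gave 1 lower in endothelial-like cells, beside 5.48%. With free RNA taken off, 1 was higher and 1 lower in endothelial-like cells, and no share of all genes was computed. Genes at least 2-fold lower made up 4.11% in fibroblast-like, 3.01% in endothelial-like and 5.13% in T-like cells at 200 UMIs or more, and 7.5% in endothelial-like cells at 20 or more. Unthinned, 8 members had a larger share of endothelial-like cells with a UMI in the MSA-2 library. In each case the cause was not tested. No paired analysis was possible because the groups share replicate number 1 only. Few cells limit the endothelial-like and NK-like classes, where 4 and 3 members had fewer than 50 UMIs, and 0 UMIs do not show that a gene was off.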

Other observations

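Among untreated DC-like cells, Aim2 was at 135 CPM in the cDC1 gate, 129 CPM in the cDC2 gate and 35.9 CPM in the mregDC gate. No Mlkl UMI was counted in the 68 cells of the mregDC gate, beside 5.14 CPM (3 UMIs) in the 57 cells of the cDC1 gate. In the 16 DC-like cells of the MSA-2 library, Zbp1 was at 306.5 CPM (24 UMIs) and Casp4 at 229.9 CPM (18 UMIs), beside 83.5 and 29.7 CPM in untreated DC-like cells. The subsets differed, with the mregDC gate passed by 9 of these 16 and by 68 of 196 untreated cells and the cDC1 gate by 1 and 57. A cell can pass more than 1 gate, and 15 of the 18 Casp4 UMIs lay in the mregDC gate.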
